A study of Mus musculus with 9 samples.

Results

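Untreated bone marrow-derived macrophages (BMDMs) grown in CSF1 made up 3 of the 9 RNA-Seq libraries of the series, and the expression level of each gene in these cells is described here. The members are the libraries labelled as untreated (UNX, replicates 1, 2 and 3). Marrow of male wild-type C57BL/6 mice (C57bl6/J in the study's methods) had been cultured for 5 to 10 days in DMEM with 10% FBS and CSF1 at 50 ng/ml, and every group shares this growth step. The mice's age is not given in the sources used here. The other groups, 3 libraries each, received medium conditioned by pulmonary artery adventitial fibroblasts of control calves (CO-CM) or of calves with hypoxia-induced pulmonary hypertension (PH-CM), with 10% FBS added before use. One label states 16 h of exposure to conditioned medium and another 24 h, and the study's methods give a time between them. Each conditioned medium was a pool over several fibroblast populations, so the treated libraries do not sample separate calves. The sources used here do not say whether CSF1 was present during that step, and no group was given fresh medium alone, so the factors released by fibroblasts and a change in the supply of CSF1 or nutrients cannot be told apart.

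CSF1 is the growth factor that marrow progenitors need to become macrophages, and it acts through the receptor tyrosine kinase encoded by Csf1r. The transcription factor PU.1, encoded by Spi1, opens the enhancers of macrophage genes, and c-MAF is known for helping to hold mature macrophages out of the cell cycle. Macrophages take up and digest particles in lysosomes, sense microbes with Toll-like receptors, and release cytokines and chemokines, most of which are transcribed only after a stimulus.

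Levels are given as RPKM, the reads of a gene divided by its exon length and by the counted reads of the library, so that genes of different length can be compared. A level without a range is the mean of the untreated libraries, with its SD over n = 3 where it is shown, and single values follow the order of replicates 1, 2 and 3. Untreated libraries held between 62017933 and 84314201 counted reads and the medium-treated libraries between 63493877 and 73049365. Of counts under 20 in the untreated libraries, between 82.3% and 83.4% were even, and a count stands for fewer independent fragments than reads. The counting options given in the study's methods set neither strand nor read pairs, so reads were counted singly and on either strand, and genes with overlapping exons can share or lose reads. Genes named below for which such an overlap is long include Itgam with Gm49368, Ctsl with Gm47123, Folr2 with Gm10602, Tbp with Pdcd2 and Arsb with Gm26527, and their levels are uncertain. The study describes the libraries of a group as biological replicates from a repeated experiment. Nothing in the labels ties a replicate number to a separate animal, so the SD may be partly technical, and p-values measure the spread between these libraries. Reads came from bulk RNA, in which fewer cells of a type and less RNA per cell cannot be told apart.

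Of 53465 genes, 10128 had at least 1 RPKM in every untreated library (18.9%), and 9543 of these code for proteins. A further 36888 genes (69.0%) stayed below 0.1 RPKM in every untreated library, and 29805 of those had no read in any. At the other end, 4454 genes reached 10 RPKM, 408 reached 100 RPKM and 23 reached 1000 RPKM in all untreated libraries. RPKM was concentrated in few genes: the 10 most abundant held 13.9% ± 0.373 (SD, n = 3) of the sum, the 100 most abundant held 34.1% ± 0.773, and 349 genes together held 50% of it. A level of 1 RPKM or more is called detected below, and a level under 0.1 RPKM in every untreated library is called silent.

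The most abundant transcript was Fth1, the ferritin heavy chain that stores iron (ENSMUSG00000024661, chromosome 19 from 9980598 to 9985098, plus strand of GRCm38). It stood at 13248, 13466 and 14142 RPKM and alone held 4.41% ± 0.113 (SD, n = 3) of all RPKM. Lyz2, the lysozyme of the myeloid lineage (chromosome 10 from 117277331 to 117282321, minus strand), followed with 5442, 5864 and 5685 RPKM, far below Fth1 and without overlap of the libraries. Both genes have close copies in the genome (Fth1 has processed pseudogenes and Lyz2 has Lyz1), between which counting can split reads. Next among nuclear genes came Actb, cytoplasmic actin, at 4054, 3623 and 3825 RPKM. The galectins Lgals3 at 2722 ± 476 RPKM and Lgals1 at 2113 ± 128 RPKM bind sugars of glycoproteins. Then came the lysosomal proteases Ctsd at 2255 ± 123, Ctsb at 2247 ± 177 and Ctss at 1624 ± 192 RPKM, and Psap, the precursor of the sphingolipid activator proteins, at 2199 ± 275 RPKM. Cd68, a glycoprotein of macrophage lysosomes, had 1679.6, 1897 and 1795 RPKM. Gpnmb, a transmembrane glycoprotein of lysosome-rich cells, had 1494, 1924 and 1947 RPKM, and Spp1, the secreted phosphoprotein osteopontin, had 1378, 1792 and 1822 RPKM. In Lgals3, Psap, Gpnmb, Spp1 and Ctss replicate 1 was the lowest library, apart from the other two. The elongation factor Eef1a1 at 2171 ± 37.5 RPKM and the ribosomal protein Rplp1 at 1822 ± 28.2 RPKM complete the leading 15 together with Gm23935. Gm23935 is annotated as a miRNA gene of 57 bases, so its 2937 ± 215 RPKM rest on 9532 to 14942 reads divided by a very short length. Exons of Ctsd, Ctsb and Spp1 overlap those of Gm49369, Fdft1 and Gm42793.

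The mitochondrial genome was led by mt-Co1, a subunit of cytochrome c oxidase, at 4857 ± 108 RPKM. It was followed by mt-Nd1 (2480.1 ± 47.2), mt-Cytb (2196 ± 41.4), mt-Nd2 (1222 ± 7.93) and mt-Nd5 (1145 ± 90.3), which encode parts of complexes I and III. The 37 mitochondrial genes held 4.60% ± 0.101 of RPKM but 1.76% ± 0.0144 of reads (SD, n = 3). Ribosomal protein genes held 6.14% ± 0.0851 of RPKM over 89 genes.

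**Figure D1:**
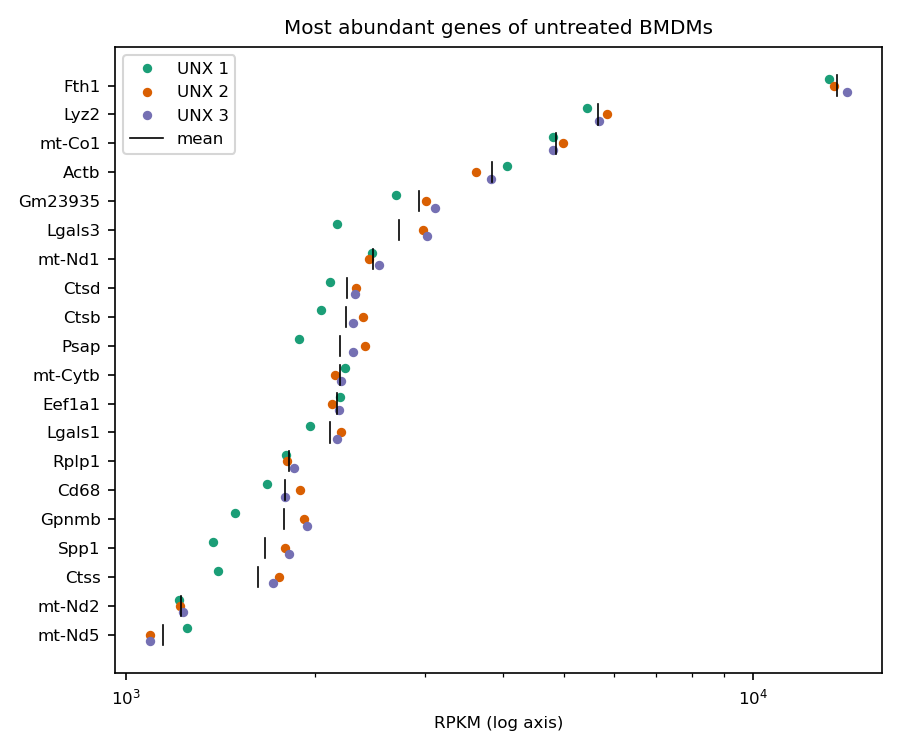
RPKM on a log axis of the 15 most abundant nuclear and 5 most abundant mitochondrial genes, with one point for each untreated library and a black line at the mean. Fth1, at 13248 to 14142 RPKM, stands apart from Lyz2, at 5442 to 5864 RPKM, and the other genes follow in small steps.

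The label of macrophage held against the defining markers fixed for it, all 7 of which were detected. Csf1r, the receptor for CSF1, had 373, 318 and 329 RPKM, with exons that overlap Hmgxb3 on the other strand. Adgre1, which encodes the F4/80 antigen, had 201, 203 and 189 RPKM, Cd14, the co-receptor for lipopolysaccharide, 223, 186 and 197 RPKM, and Fcgr1, the high-affinity IgG receptor, 37.9, 39.0 and 41.5 RPKM. Itgam, the integrin CD11b, and Mertk, a receptor for apoptotic cells, were lower at 21.8 ± 1.68 and 11.9 ± 0.613 RPKM. Of the 35 surface and granule genes of macrophages, 32 were detected and 17 reached 100 RPKM, with a median of 85.5 RPKM beside 0.229 over all protein-coding genes. The exceptions below 1 RPKM in some library were Ccr2 (0.816, 1.04 and 0.979), Cx3cr1 (1.86, 0.733 and 0.816) and Ly6c2 (0.0118, 0.0296 and 0.0346 RPKM), all 3 known from monocytes. The male label was met as well, since the 4 Y-linked genes Ddx3y, Eif2s3y, Uty and Kdm5d had means of 1.55 to 12.4 RPKM and Xist had a mean of 0.000503 RPKM.

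Among macrophage transcription factors 26 of 30 were detected. Spi1 (ENSMUSG00000002111, chromosome 2 from 91082390 to 91115756, plus strand) led with 121, 112 and 118 RPKM, and no other factor of the list reached 100 RPKM in every library. Maf stood at 89.1, 99.8 and 86.3 RPKM. Id2 at 83.8 ± 3.70 RPKM, an inhibitor of basic helix-loop-helix factors, overlapped the range of Maf. The C/EBP factors Cebpa and Cebpb, which work beside PU.1 in myeloid cells, had 36.0 ± 0.794 and 30.7 ± 2.83 RPKM, and the interferon regulatory factor Irf8 had 19.9 ± 0.758 RPKM. The 3 silent members of the list were factors of tissue-resident programmes. Gata6 of peritoneal macrophages averaged 0.00337 RPKM, Sall1 of microglia had 0 reads and Spic of red pulp macrophages averaged 0.0298 RPKM.

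Markers of resident macrophages of single tissues were detected for a minority of each list, from 20% for peritoneal to 42.9% for Kupffer cell markers. Of protein-coding genes 43.5% were detected, and the Kupffer cell, osteoclast (41.7%) and microglial (40%) shares were near that. For Kupffer cells of the liver 3 of 7 were detected, with Folr2 at 50.8 ± 5.88 and Cd5l at 14.2 ± 2.79 RPKM, but Clec4f had 0 reads, and Timd4 and Vsig4 were silent. Of 12 alveolar markers 3 were detected, namely Pparg (11.1 ± 0.929), Fabp4 (9.53 ± 3.41) and Itgax (5.05 ± 2.81 RPKM), whereas Siglecf (0.397) and Marco (0.388) were below 1 RPKM and Car4 had 0 reads. Of 10 microglial markers 4 were detected, among them Fcrls (11.4 ± 1.84) and the purinergic receptor P2ry12 (4.28 ± 0.512 RPKM), while Tmem119 averaged 0.114 RPKM and Siglech 0.00533 RPKM. Of 10 peritoneal markers 2 were detected, Fn1 (11.7 ± 1.13) and Icam2 (2.98 ± 0.146 RPKM), with Tgfb2 at 0.314 RPKM and Cxcl13 at 0 reads. Of 7 red pulp markers 2 were detected, and Hmox1, the heme oxygenase, was high at 578, 504 and 537 RPKM, beside Slc40a1 at 8.79 ± 0.750, Treml4 at 0.229 and Vcam1 at 0.0983 RPKM. Of 12 osteoclast genes 5 were detected, with the proton pump subunit Atp6v0d2 at 26.8, 78.0 and 70.0, the RANK receptor Tnfrsf11a at 25.5 ± 1.64, the protease Ctsk at 13.8 ± 3.98 and the factor Nfatc1 at 10.8 ± 0.510 RPKM, whereas Dcstamp averaged 0.560 RPKM and Calcr had 0 reads.

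Markers of other cell types were checked list by list, and the silent share of each stands beside 69.0% of all genes and 45.4% of protein-coding genes. For T cells 9 of 12 were silent, the whole list summed to 29.4, 42.9 and 43.4 RPKM, nearly all of it from the receptor Il7r (28.8, 41.9 and 42.8 RPKM), and Cd3d, Cd3e, Cd3g and Cd8a had 0 reads, with Cd4 at 0.560 and Lck at 0.108 RPKM. All 9 NK cell markers were silent, with Klrb1c at 0.0387 and Tbx21 at 0.00318 RPKM, and with Ncr1, Nkg7 and Gzma at 0 reads. Of 12 erythroid markers 11 were silent, and the globin gene Hbb-bs had 0 reads, while Hba-a1, Klf1 and Alas2 had means of at most 0.0664 RPKM, as did Hbb-bt, and Epor averaged 0.0721 RPKM. Of 11 B cell markers 8 were silent and Pax5 had 0 reads, with Ms4a1 at 0.00128, Cd79a at 0.0351, Cd79b at 0.432 and Cd22 at 0.851 RPKM, yet the constant region Ighm had 5.12, 19.6 and 15.5 RPKM. Of 15 neutrophil markers 7 were silent and 2 were detected, Mmp8 (2.05 ± 0.238) and S100a8 (1.41 ± 0.0760 RPKM), with S100a9 at 0.741, 1.04 and 1.86, Ngp at 0.527, Camp at 0.111 and Ly6g at 0 RPKM. The dendritic cell genes Flt3, Zbtb46, Xcr1 and Clec9a were silent, each with a mean of at most 0.0386 RPKM, although Bst2, a tetherin that macrophages also express, had 111 ± 8.70 RPKM, with Batf3 at 1.25 ± 0.162 and Itgae at 0.115 RPKM. For mast cells, basophils and eosinophils 10 of 12 were silent, among them Cpa3, Epx, Fcer1a and Prg2, with the receptor Ccr3 detected at 2.30 ± 0.361 RPKM, Mcpt8 at 0.0729 and Gata2 at 0.0318 RPKM. The platelet chemokine Pf4 stood at 230.4 ± 15.2 RPKM, but Gp9 had 0 reads and Itga2b (0.0460), Gp1ba (0.329) and Ppbp (0.311 RPKM) were low, and Treml1 was detected at 1.85 ± 0.0813 RPKM. Progenitor genes were low, with Kit at 0.302, Cd34 at 0.139, Mecom at 0.00318, Sox4 at 0.686 and Ly6a at 0.534 RPKM, and Procr at 1.79 ± 0.382 RPKM was the only one of 13 detected. The adipocyte genes Adipoq, Lep and Cfd had 0 reads and Plin1 and Plin4 averaged 0.00194 and 0.0158 RPKM, while Fabp4, also on the alveolar list, was the 1 adipocyte marker of 8 detected.

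Several stromal genes were detected. Of 16 fibroblast markers 6 were detected, namely Acta2 (24.4, 17.4 and 23.0), the collagens Col1a1 (17.8, 15.5 and 20.6), Col1a2 (5.86, 5.84 and 7.14) and Col3a1 (1.43, 1.93 and 2.22), the matrix protein Sparc (7.13 ± 0.791) and the cross-linking enzyme Loxl1 (2.76 ± 0.237 RPKM). Dcn and Pdgfra averaged 0.280 and 0.181 RPKM, and Lum and Lepr were silent. The summed fibroblast list was 61.3, 52.0 and 66.5 RPKM. Of 12 endothelial markers Vwf (6.39, 9.44 and 8.12) and the VEGF receptor Kdr (4.91, 3.60 and 4.16 RPKM) were detected, while Cdh5 averaged 0.305 RPKM, Tek 0.00191 RPKM and Emcn 0.00146 RPKM.

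**Figure D2:**
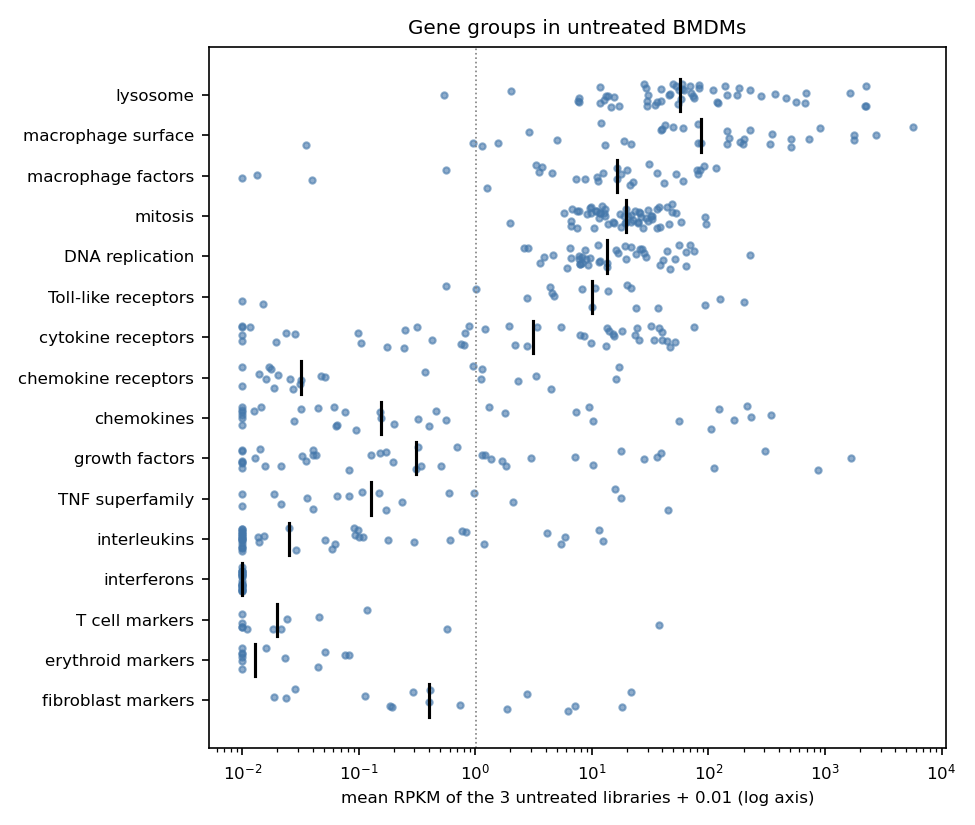
Mean RPKM of the 3 untreated libraries plus 0.01, on a log axis, for the genes of 16 groups, with one point for each gene, a black line at the median of the group and a dotted line at 1 RPKM. Mitosis, replication and all lysosome genes but 1 lie right of the dotted line, and all 21 interferons lie at the left edge, with 0 reads.

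Of 56 lysosome genes 55 were detected, 18 of them at 100 RPKM or more in every library, with Acp5 as the exception at 0.453, 0.487 and 0.631 RPKM. Together they held 4.54% ± 0.303 (SD, n = 3) of RPKM. Beside the leading cathepsins, Lamp1, a major protein of the lysosomal membrane, had 632, 719 and 694 RPKM, Ctsz 611, 709 and 714 RPKM and Ctsl 217, 227 and 232 RPKM. Factors of the MiT/TFE family, which switch on lysosome genes, are known to bind the E-box CACGTG. The letters CACGTG, which read the same on both strands, were in the 250 bases before the start of 14 of 53 lysosome genes with a RefSeq promoter (26.4%), against 6.02% of all 32851 promoters. The last 150 bases before the start are shown for the most abundant genes of this list that hold the motif there (RefSeq, GRCm38.p6, 5′ to 3′ on the gene's strand, CACGTG in capitals).
Ctsd (chr7:142387828-142387977, minus strand): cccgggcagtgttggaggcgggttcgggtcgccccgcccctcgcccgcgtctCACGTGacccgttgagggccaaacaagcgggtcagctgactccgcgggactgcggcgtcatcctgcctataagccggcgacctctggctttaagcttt
Lamp1 (chr8:13159011-13159160, plus strand): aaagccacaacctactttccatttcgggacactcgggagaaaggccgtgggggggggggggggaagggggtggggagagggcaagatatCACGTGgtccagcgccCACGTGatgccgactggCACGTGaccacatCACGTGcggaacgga

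Iron genes were headed by Fth1 and the ferritin light chain Ftl1, at 1403, 1381 and 1453 RPKM, and 12 of 19 were detected. The transferrin receptor Tfrc had 52.8, 27.9 and 34.8 RPKM, highest in replicate 1, and the iron exporter Slc40a1 had 9.64, 8.47 and 8.25 RPKM. Of 29 lipid genes 25 were detected, led by the lysosomal lipase Lipa (462 ± 18.4), the fatty acid receptor Cd36 (350.0 ± 12.9) and the apolipoprotein Apoe (271 ± 31.6 RPKM). The lipoprotein lipase Lpl had 192 ± 35.5 RPKM, the lipid receptor Trem2 145 ± 5.60 RPKM and the cholesterol exporter Abca1 11.7, 20.9 and 17.5 RPKM.

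The complement genes were split. The 3 chains of C1q, which tags targets for the classical pathway, were abundant, with C1qb at 805, 862 and 797, C1qc at 405, 455 and 409 and C1qa at 289, 280.1 and 262 RPKM, and properdin (Cfp) stood at 208 ± 6.45 RPKM. The central component C3 had 0.721, 0.763 and 0.577 RPKM, and 13 of 22 secreted complement genes were silent. Class I antigen presentation was high, with B2m at 1234, 1488 and 1442, H2-D1 at 496, 572 and 548 and H2-K1 at 196, 226 and 214 RPKM. Class II genes were low, with the invariant chain Cd74 at 6.96, 9.86 and 9.32 RPKM, H2-Aa at 1.36, 1.86 and 1.54 RPKM, and their activator Ciita at 0.0500 RPKM. All 41 cytoskeletal genes were detected and 29 reached 100 RPKM, among them the actin regulators Tmsb4x (1574 ± 46.1) and Cfl1 (856 ± 13.3) and the intermediate filament Vim (779.5 ± 64.8 RPKM). All 14 common reference genes were detected, between 1.53 RPKM for Tbp and the 3834 RPKM of Actb, and Gapdh had 549.9, 698 and 629.9 RPKM.

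Of 13 genes of the colony-stimulating factors, their relatives and their receptors 7 were detected, and Csf1r and Csf2ra stood highest. Csf2ra, the binding chain of the receptor for GM-CSF, had 165, 177 and 179 RPKM, and its signalling partner Csf2rb had 23.6, 29.3 and 28.2 RPKM, a value that the near-identical Csf2rb2 (44.3 ± 7.48 RPKM) makes uncertain. The G-CSF receptor Csf3r stood at 1.58, 2.03 and 2.26 RPKM. Csf1 itself was transcribed at 4.05, 2.53 and 3.14 RPKM, under every value of its receptor, and the alternative ligand Il34 was silent at 0.0329, 0.0414 and 0.0484 RPKM. Csf2 and Csf3 were silent, each with reads in replicate 3 only, and Kitl was detected at 5.21 ± 0.243 RPKM.

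Of 19 Toll-like receptors and adaptors 15 were detected. The 5 highest Toll-like receptors were Tlr13 (96.2, 90.9 and 93.2), Tlr7 (35.9, 38.3 and 35.9), Tlr8 (23.5, 25.4 and 23.3), Tlr4 (22.2, 21.1 and 21.1) and Tlr2 (18.1, 11.5 and 11.8 RPKM). Tlr13, Tlr7 and Tlr8, which sense RNA inside endosomes, thus stood above Tlr4, the sensor of lipopolysaccharide, with no overlap of the libraries between neighbours in this order. Their endosomal chaperone Unc93b1 had 127 ± 9.99 RPKM. Tlr9, the sensor of DNA, was near the detection level at 0.714, 1.17 and 1.13 RPKM, the flagellin sensor Tlr5 had 0.498, 0.596 and 0.540 RPKM, and Tlr11 and Tlr12 were silent.

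Among Fc receptors the shared signalling chain Fcer1g (671, 760.0 and 740.0) and the activating receptor Fcgr3 (229.7, 299.9 and 274 RPKM) led, above Fcgr1. The inhibitory Fcgr2b (13.3 ± 1.37) and the activating Fcgr4 (10.5 ± 2.09 RPKM) were lower, near each other but without overlap of the libraries. Of 34 scavenger and lectin receptors 24 were detected, with Cd36, the endocytic Lrp1 (229 ± 15.9) and the lectin Clec4d (199 ± 17.4 RPKM) highest. The mannose receptor Mrc1 had 148, 168 and 131 RPKM, the scavenger receptor Msr1 95.4, 71.6 and 78.4 RPKM and the beta-glucan receptor Clec7a 6.93, 13.6 and 13.4 RPKM. Receptors for the complement peptides were abundant, C5ar1 at 357, 295 and 307 and C3ar1 at 246, 235 and 234 RPKM. The range of C5ar1 overlapped that of the integrin chain Itgb2 (301, 367 and 358 RPKM), and C3ar1 lay below both. The nucleotide receptors P2ry6 and P2rx4 had 68.0 ± 3.56 and 24.3 ± 2.44 RPKM.

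Cytokine receptors were detected for 27 of 46 genes, but none reached 100 RPKM. The TNF receptors Tnfrsf1a (78.4, 73.0 and 74.4) and Tnfrsf1b (45.1, 54.3 and 55.1 RPKM) and the TSLP receptor chain Crlf2 (46.9 ± 1.52 RPKM) led. Ifngr1 had 39.3, 40.9 and 39.4 RPKM, Il4ra 18.2, 19.0 and 17.3 RPKM and Il10ra 12.02, 16.4 and 13.3 RPKM. Il1r1, through which interleukin-1 signals, had 0.0456, 0.0978 and 0.142 RPKM. Chemokine receptors were fewer, 5 of 23 detected and 14 silent. Among them were Ccr1 (11.2, 21.3 and 19.0), Cxcr4 (12.98, 18.0 and 17.3), Cxcr3 (3.27 ± 0.473) and Ccr3 (2.30 ± 0.361 RPKM), the ranges of Ccr1 and Cxcr4 overlapping. Of 26 nuclear receptors 13 were detected, led by the oxysterol receptor Nr1h2 (29.8, 32.5 and 31.5), the glucocorticoid receptor Nr3c1 (16.0 ± 1.09) and Rxrb (11.98 ± 0.580 RPKM). The related Nr1h3 had 3.51 ± 0.277, Pparg 11.1 ± 0.929 and Ppard 4.47 ± 0.561 RPKM.

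Of 156 genes of soluble signals 53.8% were silent and 23.7% detected, beside 69.0% and 18.9% of all genes. Among protein-coding genes 45.4% were silent and 43.5% detected. All 21 interferon genes had 0 reads among 220231029 counted in the untreated libraries. A count of 0 allows up to 3 fragments, which with both mates counted is 6 reads over the group, or 0.0363 RPKM for Ifnb1 and 0.0210 RPKM for Ifng, limits that cover counting error only. Of 41 interleukins and relatives 25 were silent, 17 of them without a read, and 5 were detected, beside 18.9% of all genes detected and 69.0% silent. Il6 had 4, 0 and 6 reads, Il12b had 2 reads in all, and Il1b (0.101, 0.0993 and 0.0498) and Il1a (0.123, 0.0891 and 0.0841 RPKM) were at the edge of the silent level. Il10 was higher at 0.542, 0.795 and 0.933 RPKM, still below 1. The 5 detected were Ebi3 (11.5, 14.2 and 11.5), a subunit of the cytokine IL-27 whose exons overlap Gm16712, the interleukin-1 antagonist Il1rn (9.61, 11.8 and 12.7), Il15 (4.53, 7.18 and 5.77), Osm (4.46, 6.37 and 5.51) and Il18 (3.57, 4.29 and 4.49 RPKM).

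In the TNF superfamily 4 of 18 genes were detected (22.2%), beside 18.9% of all genes and 43.5% of protein-coding genes. Tnfsf12, which encodes TWEAK and shares exons with the readthrough gene Tnfsfm13, had 35.9, 50.1 and 48.1 RPKM, Tnfsf9, the ligand of 4-1BB, 17.4, 18.8 and 16.7 RPKM, and Tnfsf13, which encodes APRIL, 1.596, 2.48 and 2.24 RPKM. Tnf stood at 21.7, 11.7 and 13.8 RPKM and was highest in replicate 1, so that its range took in that of Tnfsf9. The B cell factor Tnfsf13b averaged 0.226 RPKM.

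Of 35 chemokines 12 were detected (34.3%, beside 18.9% of all genes and 43.5% of protein-coding genes). Of these 12, 4 stood at 100 RPKM or more in every library. Ccl2, which attracts monocytes through CCR2 (chromosome 11 from 82035571 to 82037453, plus strand), led with 352, 301 and 388 RPKM, above the ranges of all others. Pf4 (215, 246 and 230.1) and Ccl9 (177, 235 and 230.4) overlapped each other, followed by Ccl7 (148, 156 and 189), Ccl6 (86.4, 159 and 125), Ccl3 (124, 81.8 and 107) and Ccl4 (69.8, 43.2 and 53.0 RPKM). Lower but detected were Cxcl14 (10.1 ± 0.695), Ccl12 (9.34 ± 1.31), the transmembrane Cxcl16 (7.28 ± 0.646), Cxcl2 (2.65, 1.204 and 1.49) and the interferon-inducible Cxcl10 (1.51, 1.14 and 1.21 RPKM). Replicate 1 was highest in Ccl3, Ccl4, Cxcl2 and Cxcl10 and lowest in Pf4, Ccl9, Ccl7 and Ccl6. Ccl11, Cxcl11 and Cxcl13 were among 6 chemokines with no read. The letters TATAAA, on either strand, lay in the 250 bases before the start of 10 of 26 chemokine genes (38.5%) and 10 of 35 interleukin genes (28.6%), against 12.4% of all promoters. Shown are the 150 bases before the start of the most abundant detected chemokine genes that hold it there (capitals, both strands, which overlap in Ccl9). TATAAA is the core of the TATA box, an element of many inducible genes.
Ccl9 (chr11:83578637-83578786, minus strand): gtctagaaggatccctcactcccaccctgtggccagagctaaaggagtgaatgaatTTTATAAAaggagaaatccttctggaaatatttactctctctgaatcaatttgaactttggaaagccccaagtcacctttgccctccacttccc
Ccl12 (chr11:82101695-82101844, plus strand): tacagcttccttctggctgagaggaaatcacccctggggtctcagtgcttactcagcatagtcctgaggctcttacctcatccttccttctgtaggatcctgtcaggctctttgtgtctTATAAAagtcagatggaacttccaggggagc

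Of 41 growth factors 16 were detected (39.0%), beside 18.9% of all genes and 43.5% of protein-coding genes. Below Spp1 came Grn, the progranulin precursor (829.6, 895 and 893), Mif (237, 368 and 306) and Tgfb1 (107, 116 and 112 RPKM). Igf1 had 43.5, 33.4 and 40.2, Gdf15 30.4, 32.2 and 45.4, Vegfb 28.0 ± 4.05, Vegfa 11.8, 23.6 and 17.5, Pdgfb 12.7, 8.87 and 8.89 and Gdf3 4.37, 7.03 and 10.0 RPKM. Pdgfa, Bmp2, Angpt2, Hbegf, Hgf and Pdgfc had means between 1.14 and 2.99 RPKM. Vegfa was lowest in replicate 1 and highest in replicate 2.

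Ligands and receptors were set side by side in 45 pairs chosen from textbook knowledge. In 15 pairs the receptor was detected and the ligand silent, in 10 both were detected, and in 2 the ligand was detected and the receptor silent. The first kind held Ifng with Ifngr1 and Ifngr2 (34.0 ± 0.470 RPKM), Ifnb1 with Ifnar1 (31.9 ± 1.53) and Ifnar2 (23.5 ± 0.110), Il6 with Il6ra (7.93 ± 0.594) and Il6st (15.4 ± 0.331), and Il17a with Il17ra (5.44 ± 1.06 RPKM). It also held the RANK ligand Tnfsf11 with Tnfrsf11a, Cd40lg with Cd40 (3.39 ± 0.291 RPKM), Il13 with Il13ra1 (2.17 ± 0.348 RPKM) and the complement gene Hc with C5ar1. Both sides were detected, among others, for Csf1 with Csf1r, Tnf with both receptors, Tgfb1 with Tgfbr1 (13.4 ± 0.811) and Tgfbr2 (24.2 ± 1.61), Ccl3 with Ccr1 and Cxcl10 with Cxcr3. So were Gas6 (384, 441 and 389 RPKM) with Axl (2.85 ± 0.318) and Pros1 (8.14 ± 0.389) with Mertk, bridging ligands and receptors for apoptotic cells. The reverse kind was Il18 with Il18r1 (0.00164) and Cxcl16 with Cxcr6 (0.0370 RPKM). The pairs of Ccl2, Ccl7 and Ccl12 with Ccr2 were uneven, since Ccr2 was below 1 RPKM in replicates 1 and 3. Other uneven pairs were Il15 with Il15ra (0.798), Osm with Osmr (0.163), Vegfa with Flt1 (0.191), Igf1 with Igf1r (0.966) and Pdgfb with Pdgfrb (0.734 RPKM). In the other direction Il4 (0.817), Il10, Cxcl12 (0.386) and C3 stood below 1 RPKM with their receptors detected, and Il1a, Il1b, Il27 (0.289), Cx3cl1 (0.145) and Il33 (0 reads) had no receptor detected in every library.

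**Figure D3:**
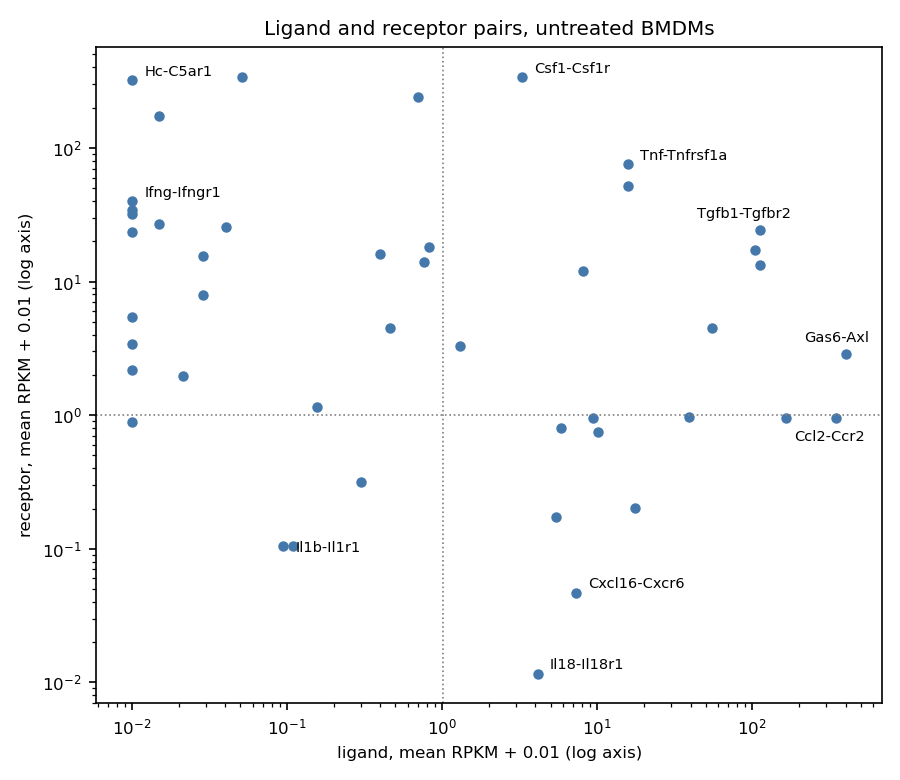
Mean RPKM of ligand (horizontal) and receptor (vertical) in the 3 untreated libraries, each plus 0.01 on a log axis, with one point for each of 45 pairs and dotted lines at 1 RPKM. Pairs with a silent ligand and a detected receptor, such as Ifng and Ifngr1, fill the upper left, and Il18 with Il18r1 and Cxcl16 with Cxcr6 lie at the lower right.

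Genes used as markers of classical (M1) and alternative (M2) activation were mixed. Of 24 M1 markers 8 were detected (33.3%) and 10 silent (41.7%), and of 24 M2 markers 12 were detected (50%) and 6 silent (25%). Among protein-coding genes 43.5% were detected and 45.4% silent. Among M1 markers, Irf5 (79.6 ± 5.82), Fcgr1 and Tnf were highest, Cd86 had 1.38, 1.31 and 0.975 RPKM, and Nos2, the inducible nitric oxide synthase, was silent at 0.0146, 0.0184 and 0.0108 RPKM. Among M2 markers, Mrc1, Msr1 and the transglutaminase Tgm2 (22.4 ± 2.77 RPKM) were highest. Arg1, the arginase that competes with nitric oxide synthase for arginine, had 1.80, 9.52 and 4.33 RPKM, a range of 5.28-fold. Retnla had 0 reads, Chil3 0.257, 0.415 and 0.494 RPKM and Mgl2 0.778, 0.775 and 0.742 RPKM.

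The untreated culture expressed the whole of both cell cycle lists. All 44 DNA replication genes and all 60 mitosis genes were detected in every library, beside 43.5% of protein-coding genes. The median level was 13.5 RPKM for replication and 19.6 RPKM for mitosis. Pcna, the sliding clamp of DNA polymerase (chromosome 2 from 132249162 to 132253314, minus strand), had 223, 219 and 235 RPKM, apart from Mcm6 (74.7 ± 4.19), the ribonucleotide reductase subunit Rrm2 (74.6, 64.9 and 68.3) and Mcm5 (68.9, 60.3 and 64.9 RPKM), which overlapped. Mcm2, another subunit of the replicative helicase, was lower at 28.3, 23.6 and 25.7 RPKM. Mki67, the gene of the Ki-67 antigen (chromosome 7 from 135689784 to 135716361, minus strand), had 106, 91.8 and 87.5 RPKM, Incenp 92.7 ± 6.35 RPKM and the topoisomerase Top2a 63.8, 56.5 and 55.4 RPKM. The cyclins Ccnb2 (52.5, 54.0 and 51.6) and Ccnb1 (22.7, 20.7 and 21.9) and their kinase Cdk1 (26.9, 25.2 and 25.4 RPKM) varied little between libraries. The lowest mitosis gene was Cenpk, at 2.17, 1.97 and 1.83 RPKM.

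Regulators of G1 were present in both directions, 31 of 34 detected. Cdkn1a, which encodes the cell cycle inhibitor p21, had 153, 128 and 126 RPKM, above Ccnd1, the D-type cyclin of this list with the highest level, in each library (143, 86.2 and 99.1 RPKM). Exons of Cdkn1a and Ccnd1 overlap AC167363.2 and LTO1. The cyclin-dependent kinase Cdk4 stood at 59.6 ± 1.17 RPKM, Myc at 40.8, 31.0 and 31.9 RPKM and Ccne1 at 13.5, 12.3 and 12.5 RPKM, while the inhibitor Cdkn1b was at 7.15, 8.20 and 6.97 RPKM. Cdkn1c averaged 0.607 RPKM, and Mycl and Mycn were silent.

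Genes of mitosis are known to carry a pair of promoter elements, the cell cycle homology region TTTGAA and CCAAT boxes. Both motifs, each on either strand, were in the 250 bases before the start of 19 of 55 mitosis genes with a RefSeq promoter (34.5%), 4 of 42 replication genes (9.52%) and 5.55% of all promoters. Alone, CCAAT was in 41 mitosis promoters (74.5%) and 25 replication promoters (59.5%), beside 33.8% of all promoters. TTTGAA was in 21 mitosis promoters (38.2%) and 5 replication promoters (11.9%), beside 16.0% of all. The most abundant mitosis genes with both in the last 150 bases before the start are shown as the other sequences were, with both motifs in capitals, which read TTCAAA and ATTGG where they lie on the opposite strand. All motifs searched here were chosen after the promoters had been examined, so the shares are a description with no test.
Mki67 (chr7:135716380-135716529, minus strand): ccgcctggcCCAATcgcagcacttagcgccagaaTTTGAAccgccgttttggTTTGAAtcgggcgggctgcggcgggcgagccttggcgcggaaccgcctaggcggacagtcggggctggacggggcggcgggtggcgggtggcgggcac
Top2a (chr11:99024190-99024339, minus strand): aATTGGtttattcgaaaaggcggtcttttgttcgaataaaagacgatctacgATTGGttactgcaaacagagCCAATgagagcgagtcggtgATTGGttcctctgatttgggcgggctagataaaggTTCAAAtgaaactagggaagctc

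Against the conditioned media, untreated libraries were compared by edgeR's quasi-likelihood test over 11950 genes. Called here means that the FDR did not exceed 0.05 and that levels differed by 1.2-fold or more. Of all genes tested, 28.9% were called higher and 28.0% lower in untreated than in CO-CM libraries, 57.0% in all. Against PH-CM 31.7% were called higher and 31.3% lower, 63.0% in all. With 3 libraries against 3, an exact two-sided permutation test of one gene cannot give a p below 0.1, and every call depends on edgeR's pooling of variance over genes. Both comparisons use the same untreated libraries, so their lists of calls are not independent.

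The cell cycle set the untreated cells apart from both media. Against CO-CM, 44 of 44 replication genes and 59 of 60 mitosis genes were called higher in untreated cells, with median log2 fold changes of 2.30 and 2.32, beside 28.9% of all genes. Against PH-CM the counts were 44 and 57, with medians of 2.79 and 2.92, beside 31.7% of all genes. Mki67 had 106, 91.8 and 87.5 RPKM in untreated, 17.2, 16.6 and 17.6 in CO-CM and 13.5, 11.8 and 11.3 in PH-CM libraries, with no overlap of untreated and treated. Its log2 difference, untreated minus medium, was 2.40 (SE 0.076, edgeR FDR 6.79e-09) for CO-CM and 2.90 (SE 0.077, edgeR FDR 1.28e-09) for PH-CM. Ccnd1 had 4.98, 5.25 and 7.75 RPKM under CO-CM and 2.33, 1.595 and 2.00 RPKM under PH-CM, log2 differences of 4.11 (SE 0.23, edgeR FDR 1.3e-07) and 5.73 (SE 0.25, edgeR FDR 1.55e-08). Uhrf1, which maintains DNA methylation at replication, differed by 4.73 (SE 0.19, edgeR FDR 8.15e-09) from PH-CM. The inhibitor Cdkn1a was also higher in untreated cells, by 1.26 (SE 0.089, edgeR FDR 7.09e-07) and 0.67 (SE 0.088, edgeR FDR 5.16e-05), while Cdkn1b was lower, with log2 differences of -1.09 and -1.19 (edgeR FDR 2.6e-05 and 1.07e-05). The exceptions in the mitosis list were Pttg1, not called in either comparison (-0.07, edgeR FDR 0.397, and 0.004, edgeR FDR 0.963), and Cenpa and Ncapg2, lower in untreated than in PH-CM libraries (-0.45 and -0.51 on the log2 scale, edgeR FDR 0.0278 and 0.000177). The call of Cenpa was lost when UNX replicate 1 or 3 or PH-CM replicate 2 or 3 was left out (edgeR FDR up to 0.0928). The summed fibroblast markers were at 52.0 to 66.5 RPKM in untreated and 59.9 to 74.7 RPKM in CO-CM libraries, which overlap, and 80.0 to 92.6 RPKM in PH-CM libraries. Of 11 tested members 5 and 8 were lower in untreated cells than under CO-CM and PH-CM, beside 28.0% and 31.3% of all genes. The call of Col1a1 in both comparisons, and that of Pdgfra against PH-CM, was lost when some single libraries were left out. The part of the fibroblast markers in the differences of cell cycle genes was not tested.

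Among chemokines, the CCR2 ligands were higher in untreated cells, as the cell cycle genes were. Ccl2 was at 4.60, 5.94 and 10.6 RPKM in CO-CM and 8.39, 7.65 and 10.7 RPKM in PH-CM libraries, far under every untreated library, with log2 differences of 5.55 (SE 0.28, edgeR FDR 6.85e-08) and 5.22 (SE 0.28, edgeR FDR 5.49e-08). Ccl7 differed by 6.21 (SE 0.21, edgeR FDR 7.89e-09) and 5.82 (SE 0.21, edgeR FDR 3.76e-09). Ccl12 had 1094 reads over the untreated libraries, 4 over CO-CM and 16 over PH-CM libraries. Ccl12 could pass the filter on low counts only through the untreated libraries, so its log2 differences are a description. They were 7.85 (SE 0.48) for CO-CM and 5.84 (SE 0.39) for PH-CM. All 4 CO-CM reads were in replicate 3, and the fitted value without that library, 11.40, depends on the prior count. Tnf was higher in untreated cells as well, by 1.32 and 1.76 (edgeR FDR 9.98e-05 and 1.12e-05). Over the list, 10 of 17 tested chemokines were higher and 4 lower than under CO-CM, beside 28.9% and 28.0% of all genes, and 7 higher and 10 lower than under PH-CM, beside 31.7% and 31.3%. Chemokines with few reads in untreated cells could pass that filter only through the treated libraries, and Ccl12 only through the untreated ones, so these counts are a description. Ch25h, which makes 25-hydroxycholesterol, was higher in untreated than in CO-CM cells by 4.07 (SE 0.61, edgeR FDR 0.00016), with 3.15, 0.882 and 0.966 RPKM in the untreated libraries.

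Most lysosome genes lay the other way, and identity genes were divided. Of 56 lysosome genes 49 were lower in untreated than in CO-CM libraries and 43 lower than in PH-CM libraries, beside 28.0% and 31.3% of all genes, with median log2 differences of -0.68 and -0.60. Ctsc was higher in untreated cells in both comparisons (1.03 and 0.92 on the log2 scale, edgeR FDR 3.98e-06 and 6.53e-06), and Arsb and Lipa were among those higher than under PH-CM. Lyz2 had 9788, 9557 and 9277 RPKM under CO-CM and 11056, 11488 and 11692 under PH-CM, log2 differences of -0.82 (SE 0.065, edgeR FDR 1.6e-06) and -1.07 (SE 0.065, edgeR FDR 1.65e-07). Csf1r was lower in untreated cells, with log2 differences of -0.37 (SE 0.087, edgeR FDR 0.00311) and -0.78 (SE 0.087, edgeR FDR 1.47e-05). Spi1 was not called against CO-CM, at -0.18 (SE 0.049, edgeR FDR 0.00707), since its fold was under 1.2, and was lower than under PH-CM, at -0.27 (SE 0.049, edgeR FDR 0.000481). Without UNX replicate 2 the Spi1 call was lost. Of 34 tested surface genes 19 were lower and 5 higher than under CO-CM, and 17 were lower and 8 higher than under PH-CM. Of 27 tested macrophage factors 13 were lower and 5 higher than under CO-CM, and 12 were lower and 8 higher than under PH-CM. Over all genes tested 28.0% were lower and 28.9% higher than under CO-CM, and 31.3% lower and 31.7% higher than under PH-CM. The share of factors higher than under PH-CM, 29.6%, was near that of all genes. Cd14 and Maf were higher in untreated than in CO-CM cells, with log2 differences of 0.82 and 0.78 (edgeR FDR 1.77e-05 and 1.47e-05). Against PH-CM Cd14 was lower in untreated cells, with a log2 difference of -1.43, and Maf, at 0.023, was not called.

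The list members with the greatest deficit in untreated cells were named from those whose libraries did not overlap between groups. Against CO-CM they were Naip1, a sensor of bacterial needle proteins (-3.64), Csf3r (-3.16), Cxcr4 (-3.10), Il1b (-2.76) and the prostaglandin receptor Ptger2 (-2.45 on the log2 scale, edgeR FDR 6.79e-09 to 0.00187 over the 5). Il1b, whose exons overlap Il1bos, moved to -2.01 without CO-CM replicate 2. Cxcr4 went from 12.98, 18.0 and 17.3 RPKM in untreated to 136, 133 and 127 RPKM in CO-CM libraries, which do not overlap. Against PH-CM they were the scavenging chemokine receptor Ackr3 (-6.69), Il1b (-6.00), the coagulation factor F5 (-5.78), the adhesion molecule Pecam1 (-5.11) and the formyl peptide receptor Fpr1 (-4.57), with edgeR FDR 1.28e-09 to 1.69e-05. All 5 were under 0.5 RPKM in every untreated library, and Ackr3 moved to -7.87 without UNX replicate 3, which held most of its reads. Of 41 interleukins 12 were tested, and 10 of them were lower in untreated than in PH-CM libraries, beside 31.3% of all genes. Against CO-CM 6 were lower and 1 higher in untreated libraries, beside 28.0% and 28.9% of all genes. Genes with few reads in untreated cells could pass the filter on low counts only through the treated libraries. Those counts, and the differences named above for such genes, are therefore a description.

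**Figure D4:**
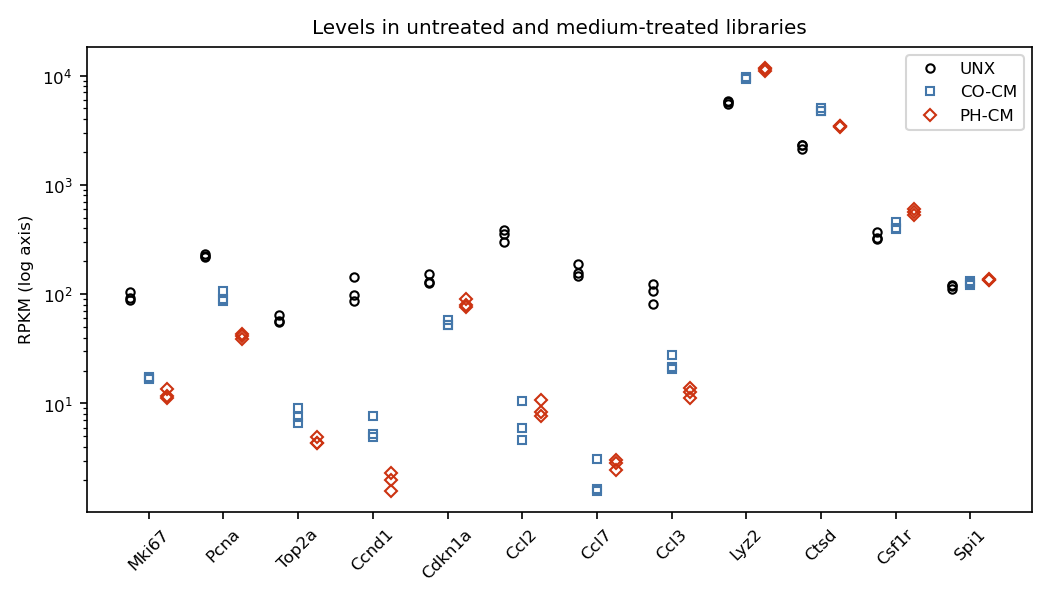
RPKM on a log axis of 12 genes in the 3 libraries of each group, untreated as circles, CO-CM as squares and PH-CM as diamonds. Untreated libraries lie above all others for Mki67, Pcna, Top2a, Ccnd1, Cdkn1a and the chemokines Ccl2, Ccl7 and Ccl3, below them for Lyz2, Ctsd and Csf1r, and close to them for Spi1.

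Untreated libraries differed little for most genes. Among 10363 genes with a mean of at least 1 RPKM, the median coefficient of variation was 5.71% (quartiles 3.32% and 9.32%), and the highest library exceeded the lowest by more than 2 times in 118 genes (1.14%). Replicate 1 was the farthest from the middle library in 5437 genes, replicate 2 in 2935 and replicate 3 in 1990. The 10 genes with the widest ratio, among those with a mean of at least 5 RPKM, were led by Arg1. Then came Ak4, an adenylate kinase of mitochondria (2.92, 11.9 and 6.06 RPKM), the integrin Itgax (1.85, 7.13 and 6.17), Ighm, the oxygen-sensing prolyl hydroxylase Egln3 (7.55, 25.3 and 14.03), Prelid2 (4.45, 14.7 and 10.4) and Bnip3, a mitophagy receptor induced in hypoxia (8.02, 25.2 and 14.98 RPKM). In each of these 7 genes replicate 1 was lowest and replicate 2 highest, as it was in Atp6v0d2. Id3, an inhibitor of basic helix-loop-helix factors, had the opposite order, with 35.4, 12.5 and 19.9 RPKM. The snoRNA gene Gm25835 (7.73, 2.63 and 7.17 RPKM) spans 144 bases. Libraries of the same number in the other groups showed a like order for some of these genes: Egln3 had 5.59, 23.6 and 15.1 RPKM in CO-CM and 15.5, 40.3 and 24.8 RPKM in PH-CM libraries, and Bnip3 7.66, 23.9 and 16.0 and 18.7, 39.7 and 26.0 RPKM. Arg1 had 0.407, 7.02 and 3.19 and 14.2, 52.5 and 28.4 RPKM, with replicate 2 again highest. Id3 did not, at 49.3, 51.3 and 51.3 RPKM in CO-CM and 58.8, 56.3 and 58.2 RPKM in PH-CM libraries.

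**Figure D5:**
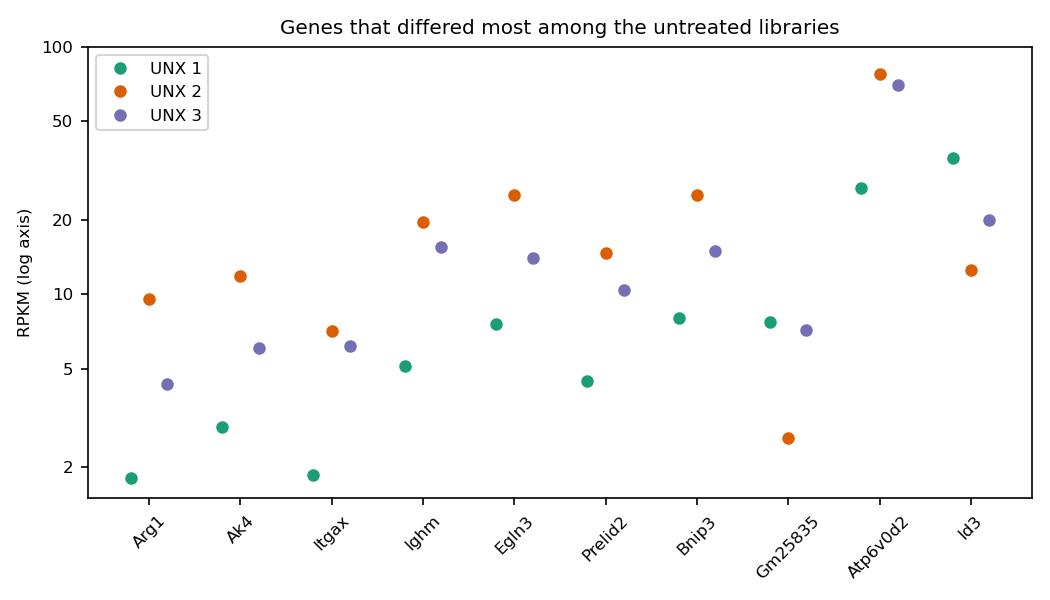
RPKM on a log axis of the 10 genes with the largest ratio of highest to lowest untreated library, with one point for each library. Replicate 1 is lowest and replicate 2 highest for Arg1, Ak4, Itgax, Ighm, Egln3, Prelid2, Bnip3 and Atp6v0d2, and the reverse holds for Id3 and Gm25835.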

How the data were processed

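RNA-Seq was analysed in 9 libraries of mouse BMDMs, of which the 3 untreated ones are described. The authors used AfterQC for trimming, STAR for alignment (GRCm38) and featureCounts 1.6.2 for counting on exons. The raw counts they deposited are whole reads per gene, and the deposited RPKM divide these counts by exon length and by the counted reads of the library. The deposited tables of the authors' edgeR comparisons (log2 fold changes and p-values) were not used. Symbols came from the Ensembl identifiers, 53274 of 53465 matched, and coordinates from GENCODE on GRCm38.

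Levels, shares and detection (at least 1 RPKM in every untreated library) were computed from RPKM in Python 3.11.15. Counts were fitted in R 4.3.3 with edgeR 4.0.16 (quasi-likelihood, TMM, all 9 libraries, genes with CPM above 1 in at least 3), with Benjamini-Hochberg FDR. The fit was tested on simulated data. Untreated libraries differed beyond sampling noise (chi-square per gene 13.4 to 57.1). Same-numbered libraries deviated together (lowest r 0.276, highest 0.484) so the numbers pair them. As in the study's methods the reported fit has no block, and a replicate block is an alternative, beside DESeq2 1.42.0, other scalings, filters and thresholds, and each library left out. The 46 lists hold 909 symbols, of which 908 matched. The untreated libraries as a subject, the lists and the pairs were chosen with earlier results of these data known. Named genes are the 15 nuclear and 5 mitochondrial genes highest in RPKM, core and leading members of each list, detected ligands, paired ligands and receptors, the 10 most variable genes, and per medium the 5 called list members with the largest change each way whose libraries do not overlap. Other genes were named after their values were seen. RefSeq held promoters for 55 of 60 mitosis, 42 of 44 replication, 53 of 56 lysosome, 26 of 35 chemokine and 35 of 41 interleukin genes.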

Additional observations from a re-analysis of the deposited data

How the results depend on the processing

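Of 53465 genes, the number detected in untreated cells was 10128. It was 8906 at 2 RPKM, 11177 at 0.5 RPKM, 11956 in TPM and between 10190 and 10227 with each untreated library left out. The 10 most abundant genes held 13.9% of RPKM, between 13.8% and 14.1% with a library left out, 14.8% without ribosomal protein genes and 8.41% when raw reads in place of RPKM were ranked and summed. Between 521 and 526 of 908 list genes were detected with a library left out, against 520. The genes called against CO-CM numbered 6806, and 1655 at a fold change of at least 2. Those called against PH-CM numbered 7534, and 2153 at that fold. With a library left out the counts lay between 6440 and 6757 and between 7222 and 7558. With the replicate number as a block they were 7037 and 7714, and the block lost no call of a listed or named gene and added 29 against CO-CM and 13 against PH-CM, so that 23 in place of 19 surface genes were lower than under CO-CM. No called value of a listed or named gene changed sign under any alternative run, and other genes were not checked for this. Reads of overlapping genes and close copies, 3 libraries per group and counts of reads in place of fragments limit the precision.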
